A study of Mus musculus with 12 samples.

Results

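The genes described here encode proteins that carry a cell through mitosis, from the cyclins and kinases that start it to the motors, kinetochore proteins, condensins and cytokinesis factors that segregate the chromosomes and divide the cell. They were taken by symbol from a list of 47 genes, and all 47 were present once in both deposited tables, among 12528 genes in all. RNAseq libraries came from hearts of adult C57BL/6 *Bmi1* CreER/+;*Rosa26* YFP/+ mice (*Bmi1*-YFP), in which tamoxifen (TM) switches on YFP in cells expressing *Bmi1* at that time and in their progeny. The study compared 3 populations, with 4 libraries each. AMI *Bmi1*-CPC were YFP+ cells sorted 5 days after acute myocardial infarction (AMI), which was performed 5 days after TM induction, with 2 to 3 mice pooled per library. *Bmi1*-CPC were YFP+ cells from unchallenged (homeostatic) hearts 5 days after TM induction, with 6 mice per library. *Sca-1*-YFP- cells were SCA-1+, CD45-, YFP-negative cells from unchallenged hearts 5 days after induction, also with 6 mice per library. The sample titles read as SCA-1+ and YFP+ for both *Bmi1*-CPC groups, whereas the study describes a sort on YFP, so whether SCA-1 was part of that gate is unclear. TM was given on 3 days to all mice, at 9 mg for each 40 g that a mouse weighed. The AMI cells were thus taken later after TM than the homeostatic cells, and no sham-operated group was analysed here. YFP marks all recombined cells and their progeny, whatever their type, and a step against CD45+ cells is stated only for the *Sca-1*-YFP- sort.

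Most genes of this kind are transcribed in late S, G2 and M phase and are silent in resting cells, so that in a bulk sample their mRNA is a widely used measure of cycling. Their promoters are known targets of the DREAM and MYB-MuvB complexes and of FOXM1, which act through a short element named the cell cycle homology region (CHR), often with CCAAT boxes bound by NF-Y nearby. In the adult heart cardiomyocytes rarely divide, whereas fibroblasts, endothelial cells and immune cells can enter the cycle, above all after injury.

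The values are normalized read counts, close to reads scaled per library. The libraries held 6784686 to 8078721 reads in AMI *Bmi1*-CPC, 4063619 to 4993906 in *Bmi1*-CPC, and for the *Sca-1*-YFP- cells 3397621 to 8031666. Reads of *mt-Rnr2*, a mitochondrial ribosomal RNA, were 20.3% to 33.4% of all reads in AMI *Bmi1*-CPC, 25.0% to 32.8% in *Bmi1*-CPC, and for the *Sca-1*-YFP- cells 10.4% to 23.7%. The floor of 3 reads, which covers counting error only, lay at a normalized value of 0.316 to 0.888 across the libraries. Every one of the 47 genes had at least 1 read in each library, but many were thinly covered at homeostasis: none had fewer than 10 reads in any AMI library, against 6 to 10 genes per *Bmi1*-CPC library and 4 to 24 per *Sca-1*-YFP- library. *Bmi1* itself had 41.1 to 49.7 in AMI *Bmi1*-CPC, 43.4 to 60.0 in *Bmi1*-CPC, and for the *Sca-1*-YFP- cells 25.0 to 35.3, so its mRNA was also present in the YFP-negative cells, and *Ly6a*, which encodes SCA-1, was at 468 or more in every library. The study calls the samples of each comparison matched without saying in what way, and p-values measure the spread between these libraries.

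After AMI the mitosis genes were higher as a group. Of the 47 genes, 42 rose in AMI *Bmi1*-CPC relative to homeostatic *Bmi1*-CPC (limma, Benjamini-Hochberg adjusted p under 0.05 over all 12486 genes tested), where 21.4% of all tested genes rose. By limma 0 fell, against 22.0% of all tested genes, and 0 were lower even at an unadjusted p under 0.05. The count of genes that fell was also 0 with edgeR and with DESeq2. The AMI and homeostatic values did not overlap for 43 genes, all higher after AMI (20.0% of all tested genes did so in this direction), and 29 rose by more than 2-fold (6.68% of all). The median log2 fold change was 1.12, beside -0.02 over all tested genes, with single genes between -0.11 and 2.06. In bulk samples, a larger share of cycling cells and more of these mRNAs per cell cannot be told apart.

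At homeostasis *Bmi1*-CPC exceeded *Sca-1*-YFP- cells for many of these genes. Here 25 of 47 rose and 22 were not called, where 16.8% of the 12450 tested genes rose. By limma 0 were lower (17.6% of all tested genes were), with 0 at an unadjusted p under 0.05 as well and 0 by edgeR and DESeq2. The populations did not overlap for 28 genes (16.6% of all), and 14 rose by more than 2-fold (7.81% of all). The median log2 fold change was 0.71, beside 0.0037 over all tested genes, with single genes between 0.03 and 1.78. This count depended on the scaling: with edgeR on the recovered reads and library totals in place of TMM, 15 genes rose and 43 of 47 had a positive fold change, while the median of all genes was then -0.25 and 10.7% of them rose. The call held under every alternative that tested it for 15 of the 25 genes. It was lost with library totals for the other 10, namely *Ccna2*, *Ccnb2*, *Incenp*, *Cenpe*, *Cenpa*, *Prc1*, *Anln*, *Ect2*, *Smc2* and *Racgap1*. The 2 comparisons share the 4 homeostatic *Bmi1*-CPC libraries, so they are not independent.

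A score per library, the mean of log2(value + 1) over the 47 genes, put the groups in the same order. It was 4.15, 4.70, 4.06 and 4.08 in AMI *Bmi1*-CPC, 3.10, 3.11, 3.17 and 3.05 in *Bmi1*-CPC, and 2.52, 2.41, 2.34 and 2.10 in *Sca-1*-YFP- cells. No library of one group reached the range of another. The mean was 4.24 ± 0.31 in AMI *Bmi1*-CPC, 3.11 ± 0.05 in *Bmi1*-CPC, and for the *Sca-1*-YFP- cells 2.34 ± 0.18 (SD, n = 4 each), so that the homeostatic *Bmi1*-CPC pools varied least. Summed over the 47 genes, the normalized values were 1242 to 1996 in AMI *Bmi1*-CPC, 606 to 694 in *Bmi1*-CPC, and for the *Sca-1*-YFP- cells 348 to 459.

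**Figure D1:**
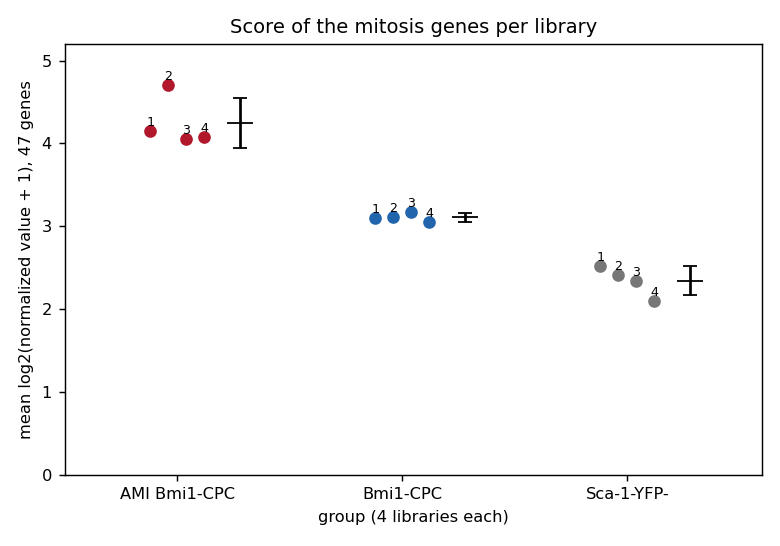
Mean log2(normalized value + 1) of the 47 mitosis genes in each library (points, numbered by replicate), with the group mean and SD beside them (n = 4 libraries per group). AMI *Bmi1*-CPC lie between 4.06 and 4.70, *Bmi1*-CPC between 3.05 and 3.17, *Sca-1*-YFP- cells between 2.10 and 2.52, and replicate 2 is the highest AMI library.

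One AMI library stood apart for these genes. Replicate 2 was the highest of the 4 AMI libraries for 44 of 47 genes, whereas it was the highest for 26.2% of all genes. Its values were a median of 1.59 times the mean of the other 3 AMI libraries, beside 0.996 over all genes. The other 3 libraries had medians of 0.862, 0.817 and 0.844. With replicate 2 left out, 39 of 47 genes still rose (17.6% of all tested genes did) and the median log2 fold change was 0.93. In the same library activated fibroblast markers stood at 1.51 times (3 of 3 genes above 1) the mean of the other AMI libraries. Red cell markers stood at 1.44 times (2 of 2), B cell markers at 1.28 times (4 of 4) and macrophage markers at 1.16 times (8 of 8). Leukocyte markers stood at 0.953 times (1 of 4) and fibroblast markers at 0.995 times (2 of 5). Endothelial markers stood at 0.895 times (0 of 6) and cardiomyocyte markers at 0.520 times (1 of 5). B cell, leukocyte and macrophage markers were higher still in AMI replicate 1, at 2.25, 1.84 and 1.49 times, where the mitosis genes had a median of 0.862. Activated fibroblast and red cell markers stood at 0.952 and 0.887 times there. The part of these cell types in the result was not tested.

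**Figure D2:**
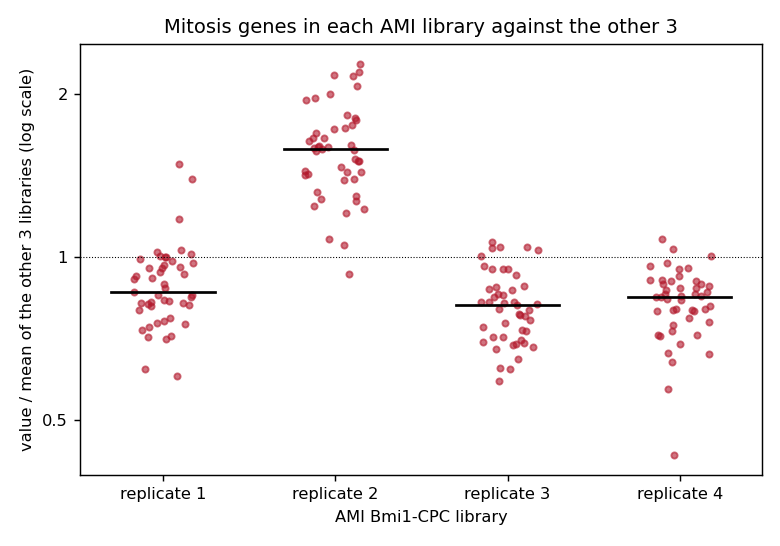
Ratio of each mitosis gene (points, 47 per library) in an AMI *Bmi1*-CPC library to its mean in the other 3 AMI libraries, on a log scale, with the median as a line. Replicate 2 has a median of 1.59 and 46 of 47 genes above 1, while the other libraries have medians between 0.817 and 0.862.

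Markers of other cell types also moved with both comparisons. After AMI, 4 of 4 leukocyte and 8 of 8 macrophage markers rose, as did 3 of 3 activated fibroblast and 3 of 5 fibroblast markers and 4 of 4 B cell markers, whereas 5 of 6 endothelial and 5 of 5 cardiomyocyte markers fell. Summed macrophage markers were at 722 to 1305 in AMI *Bmi1*-CPC, 138 to 260 in *Bmi1*-CPC, and for the *Sca-1*-YFP- cells 2.48 to 4.32. Summed activated fibroblast markers were at 3938 to 7990 in AMI *Bmi1*-CPC, 257 to 383 in *Bmi1*-CPC, and for the *Sca-1*-YFP- cells 316 to 645. The fibroblast markers summed to 6908 to 9677 in AMI *Bmi1*-CPC, 2544 to 4833 in *Bmi1*-CPC, and for the *Sca-1*-YFP- cells 13110 to 16007. At homeostasis 4 of 4 leukocyte, 8 of 8 macrophage, 6 of 6 endothelial and 5 of 5 cardiomyocyte markers were higher in *Bmi1*-CPC and 5 of 5 fibroblast markers were lower. Of the macrophage markers, *C1qa*, *C1qc* and *Emr1* had 0 reads in all 4 *Sca-1*-YFP- libraries. *C1qb*, *Lyz2*, *Csf1r* and *Mrc1* had at most 1, 3, 4 and 7 reads there, and *Cd68* had 3 to 23. *Ptprc*, which encodes CD45, had 64.0 to 149 in AMI *Bmi1*-CPC, 14.7 to 22.5 in *Bmi1*-CPC, and for the *Sca-1*-YFP- cells 0.813 to 2.12. The T cell markers were not analysed here. The part of these cell types in the levels of the mitosis genes was not tested.

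The promoters of these genes were searched for the CHR and the CCAAT box. RefSeq windows from 250 bases before to 50 bases after the gene start (build GRCm38.p6) were at hand for 40 of the 47 genes, and *Aurkb*, *Ccna2*, *Foxm1*, *Incenp*, *Kif20a*, *Smc4* and *Tpx2* had none. The letters searched, on both strands, were TTTGAA and TTTAAA for the CHR and CCAAT for the NF-Y box. CCAAT ends in the letter with which TTTGAA begins, so neighbouring matches can share it. TTTGAA was found in 33 of 40 promoters (82.5%), beside 20.2% of all 27025 genes with a window and 14.2% of the 8587 that are also in the deposited tables. CCAAT was found in 32 (80.0%, beside 41.1% and 43.1%), and both in 29 (72.5%, beside 8.0% and 5.8%). TTTAAA was found in 10 (25.0%, beside 14.9% and 11.2%). From 150 bases before to 50 bases after the start, TTTGAA remained in 33 of 40 (82.5%, beside 12.8% and 8.2%). Within 50 bases on either side of the start, a window not planned in advance, TTTGAA remained in 29 of 40 (72.5%, beside 5.7% and 3.7%). In the whole window it was present in 29 of the 35 genes that rose after AMI and in 4 of the 5 that were not called. Such a match is a description of the sequence, and binding was not measured.

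Shown here are the promoters of the 4 genes with the smallest adjusted p after AMI among those that hold both TTTGAA and CCAAT. They are given 5′ to 3′ along the gene, with capitals for TTTGAA or its reverse complement TTCAAA and for CCAAT or its reverse complement ATTGG. *Mki67* lies at chr7:135716380-135716629 on the minus strand, *Top2a* at chr11:99024190-99024439 on the minus strand, *Kif11* at chr19:37376132-37376381 on the plus strand and *Ncapg* at chr5:45669675-45669924 on the plus strand, each stretch being the 250 bases before the start.
*Mki67*: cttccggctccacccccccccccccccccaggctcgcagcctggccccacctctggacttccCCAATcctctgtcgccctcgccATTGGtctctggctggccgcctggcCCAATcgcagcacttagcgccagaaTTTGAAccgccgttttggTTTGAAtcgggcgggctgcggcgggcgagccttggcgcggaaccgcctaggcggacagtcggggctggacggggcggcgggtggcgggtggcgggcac
*Top2a*: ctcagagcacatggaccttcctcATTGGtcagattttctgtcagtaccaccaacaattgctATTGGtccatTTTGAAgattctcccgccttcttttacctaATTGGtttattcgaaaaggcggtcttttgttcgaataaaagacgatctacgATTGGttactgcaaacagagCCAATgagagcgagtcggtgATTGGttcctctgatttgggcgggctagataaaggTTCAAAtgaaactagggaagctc
*Kif11*: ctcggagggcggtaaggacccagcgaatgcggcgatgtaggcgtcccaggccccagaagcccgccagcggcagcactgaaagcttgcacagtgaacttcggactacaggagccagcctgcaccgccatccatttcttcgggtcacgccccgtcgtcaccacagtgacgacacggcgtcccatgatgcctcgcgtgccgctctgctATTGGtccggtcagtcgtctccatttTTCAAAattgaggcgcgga
*Ncapg*: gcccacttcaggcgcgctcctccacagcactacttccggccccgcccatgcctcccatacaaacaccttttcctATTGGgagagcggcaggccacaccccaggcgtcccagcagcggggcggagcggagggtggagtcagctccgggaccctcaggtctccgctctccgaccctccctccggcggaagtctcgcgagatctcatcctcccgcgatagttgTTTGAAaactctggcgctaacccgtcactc
In *Kif11* a reversed CCAAT begins 45 bases and a reversed CHR 19 bases before the start. *Ncapg* carries 1 CHR, 30 bases before the start, and *Top2a* carries 6 CCAAT matches and 2 CHR matches. In *Mki67* both CHR matches lie further upstream, at 116 and 98 bases before the start.

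**Figure D3:**
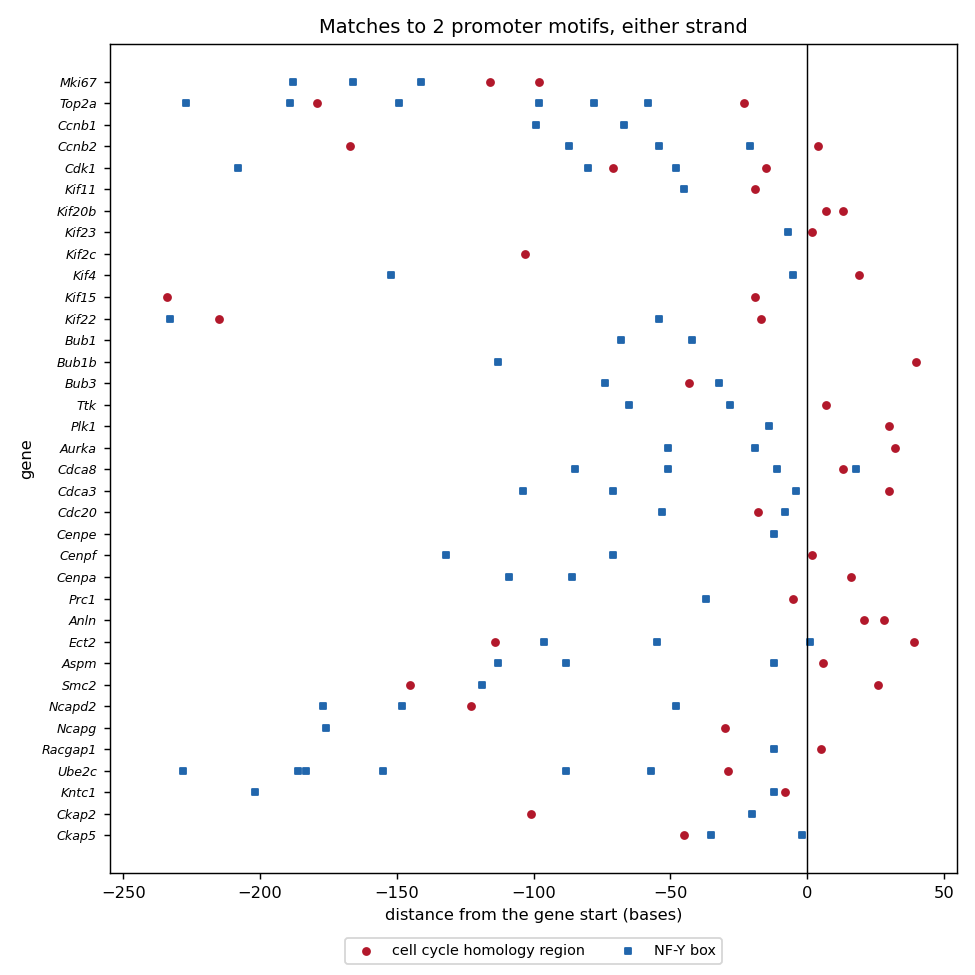
Distance from the gene start (bases, negative upstream) of each match to the cell cycle homology region (TTTGAA, circles) and to the NF-Y box (CCAAT, squares), either strand, in the first promoter window listed for a gene. Of 40 genes with a window, 36 have a match and are drawn, 33 with the cell cycle homology region and 32 with the NF-Y box.

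*Mki67*, which encodes the Ki-67 protein that coats mitotic chromosomes and is the usual marker of cycling cells, showed the order of the groups. It had 227, 366, 201 and 252 in AMI *Bmi1*-CPC, against 79.1, 89.7, 91.5 and 78.9 in *Bmi1*-CPC. The *Sca-1*-YFP- cells had 46.6, 29.1, 36.6 and 25.5. All 12 libraries fell into 3 separate ranges. *Mki67* rose by a log2 fold change of 1.58 ± 0.16 (SE) after AMI (adjusted p = 1.94e-05) and exceeded *Sca-1*-YFP- cells by 1.31 ± 0.17 in homeostatic *Bmi1*-CPC (adjusted p = 6.74e-05). *Top2a*, the topoisomerase that untangles sister DNA before segregation, had 97.6, 158, 85.2 and 103 after AMI, against 36.5, 26.5, 34.2 and 26.6 in *Bmi1*-CPC, and 15.2, 10.8, 12.4 and 11.2 in *Sca-1*-YFP- cells. Its groups were likewise apart, with log2 fold changes of 1.78 ± 0.18 (adjusted p = 2.05e-05) and 1.25 ± 0.16 (adjusted p = 8.07e-05).

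**Figure D4:**
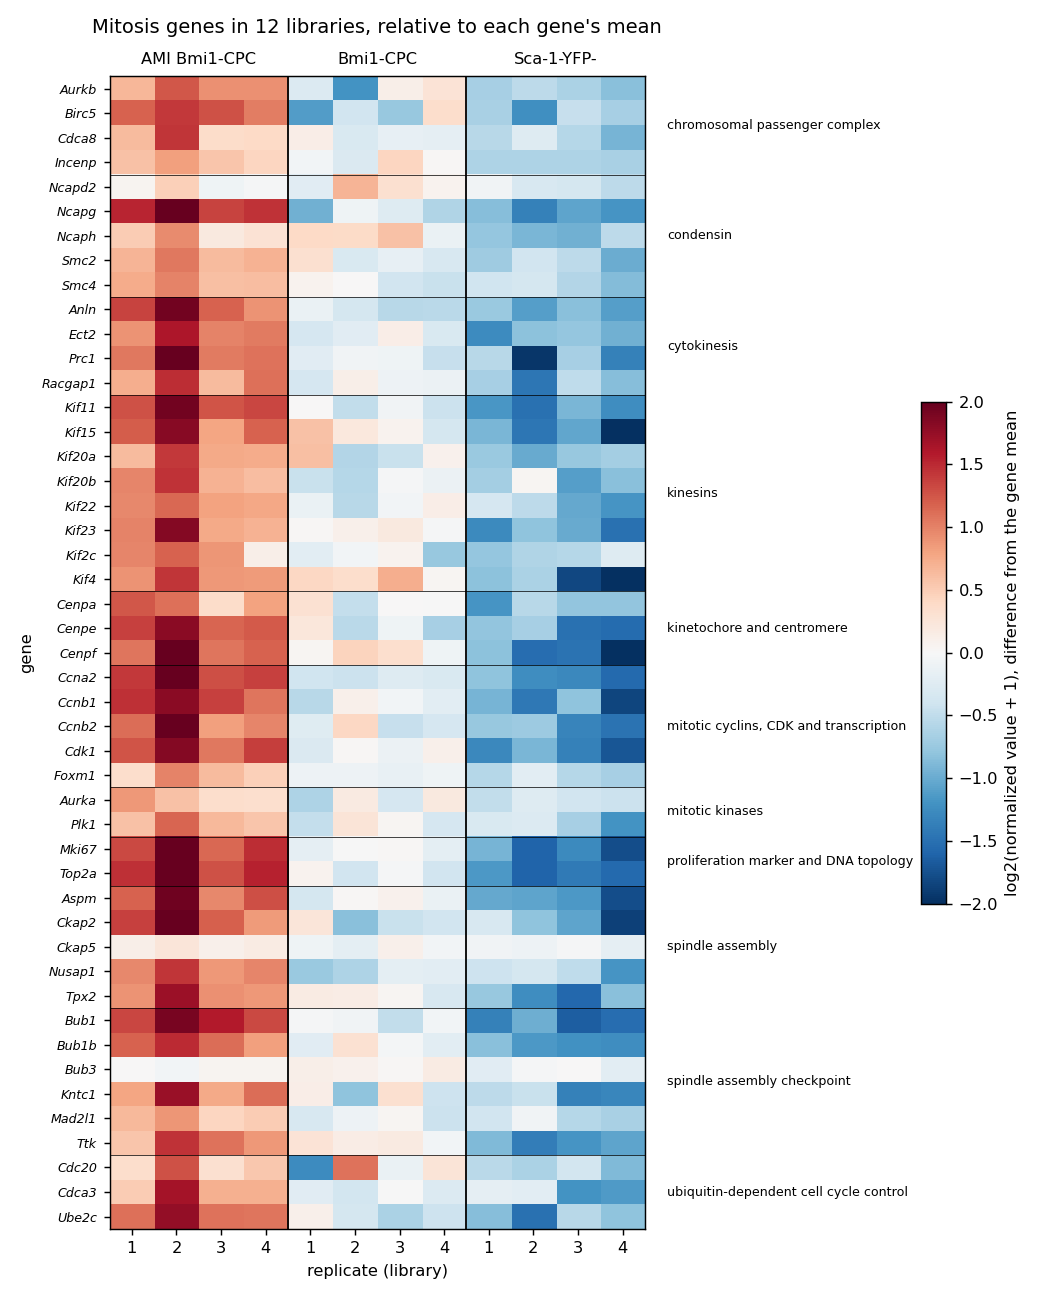
Log2(normalized value + 1) of the 47 genes in the 12 libraries as the difference from each gene's own mean, with genes grouped by role and AMI *Bmi1*-CPC on the left (colours saturate at 2 log2 units). Nearly all rows are red in AMI *Bmi1*-CPC and blue in *Sca-1*-YFP- cells, whereas *Bub3* and *Ckap5* vary little across the libraries.

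Of the cyclins, their kinase and the transcription factor of the programme, 5 of 5 rose after AMI, with log2 fold changes of 0.72 to 1.91. *Ccna2* encodes cyclin A2, which acts from S phase to early mitosis. It had 38.1, 66.6, 35.1 and 37.1 in AMI *Bmi1*-CPC, against 10.2, 9.92, 11.3 and 10.9 in *Bmi1*-CPC. The homeostatic pools lay within a narrow band and every AMI pool lay above it, a log2 fold change of 1.91 ± 0.18 (adjusted p = 1.57e-05). *Ccna2* overlaps *Exosc9* on the other strand over 431 bases, and reads within that stretch cannot be told apart by strand. *Exosc9* was not called after AMI (log2 fold change 0.28, adjusted p = 0.295). At homeostasis 4 of 5 rose in *Bmi1*-CPC. *Cdk1*, the kinase that drives entry into mitosis, had 2.81, 3.73, 3.29 and 3.96 in *Bmi1*-CPC, against 0.895, 1.45, 0.813 and 0.414 in *Sca-1*-YFP- cells, a log2 fold change of 1.25 ± 0.24 (adjusted p = 0.00142) with no overlap. These values rest on 9 to 17 reads per *Bmi1*-CPC library and 1 to 8 per *Sca-1*-YFP- library. The value of 0.414, in replicate 4, lay under the floor of that library (0.828). *Foxm1*, which encodes a transcription factor of G2/M genes, averaged 18.1 after AMI and 10.5 in *Bmi1*-CPC (log2 fold change 0.72 ± 0.15, adjusted p = 0.00287), and its homeostatic difference of 0.40 ± 0.17 was not called (adjusted p = 0.0873) unless *Sca-1*-YFP- replicate 2 was left out (0.50, adjusted p = 0.0397). *Ccnb1* and *Ccnb2*, the B-type cyclins, had log2 fold changes of 1.61 and 1.39 after AMI, and 1.07 and 0.92 at homeostasis. The homeostatic call of *Ccnb2* was lost when *Bmi1*-CPC replicate 2, *Sca-1*-YFP- replicate 3 or *Sca-1*-YFP- replicate 4 was left out (adjusted p = 0.0555 to 0.0611). *Ccnb1* shares up to 1294 bases at 98.1% identity with pseudogenes such as *Gm12856*, so that its reads are uncertain.

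*Plk1* and *Aurka*, grouped here as mitotic kinases, were expressed at low levels. *Plk1*, which encodes polo-like kinase 1, had 3.84, 6.23, 4.08 and 3.76 in AMI *Bmi1*-CPC, against 1.33, 2.88, 2.31 and 1.56 in *Bmi1*-CPC. The groups did not overlap, and *Plk1* rose by 0.87 ± 0.23 on the log2 scale (adjusted p = 0.00988). In *Sca-1*-YFP- cells *Plk1* had 1.63, 1.67, 1.05 and 0.414, which overlapped *Bmi1*-CPC, and the homeostatic difference of 0.48 ± 0.29 was not called (adjusted p = 0.229). The value of 0.414, in replicate 4, rests on 1 read and lay under the floor of that library (0.828). *Aurka*, the spindle pole kinase, rose by 0.68 ± 0.25 after AMI with an adjusted p of 0.0422, close to the threshold. This call was lost with DESeq2 (adjusted p = 0.0647), without each AMI library in turn (0.0513 to 0.128) and without *Bmi1*-CPC replicate 1 or 3 (0.0915 and 0.0889).

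The chromosomal passenger complex corrects faulty attachments of chromosomes to the spindle and later marks the site of cleavage. After AMI 4 of 4 of its genes rose, by 0.57 to 1.70. *Birc5*, which encodes survivin, had 6.10, 7.35, 6.54 and 5.32 in AMI *Bmi1*-CPC, against 0.444, 1.39, 0.853 and 3.00 in *Bmi1*-CPC. Its homeostatic pools were uneven, with replicate 4 the highest, but none reached the AMI range (log2 fold change 1.70 ± 0.29, adjusted p = 0.000606). The homeostatic values rest on only 1 to 12 reads of *Birc5* per library, against 37 to 52 after AMI. *Aurkb*, the kinase of the complex, averaged 5.80 ± 1.14 after AMI and 2.13 ± 1.20 in *Bmi1*-CPC (SD, n = 4 each; adjusted p = 0.00657). *Incenp* and *Cdca8*, which encode the scaffold and borealin, were also called (0.57 and 0.83, adjusted p = 0.0195 and 0.0179), but not once AMI replicate 2 was left out (0.50 and 0.59, adjusted p = 0.0646 and 0.0519). At homeostasis 1 of 4 rose. *Incenp* had 7.84, 6.50, 11.3 and 8.29 in *Bmi1*-CPC, against 5.00, 5.01, 4.99 and 4.83 in *Sca-1*-YFP- cells, a log2 fold change of 0.65 ± 0.19 (adjusted p = 0.0198). This call was lost without *Bmi1*-CPC replicate 3, the highest pool (0.51, adjusted p = 0.0701), and with library totals (0.52, adjusted p = 0.135). The other 3 genes had differences of 0.27 to 0.45 that were not called.

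Genes of the spindle assembly checkpoint, which holds anaphase until every chromosome is attached, split into 5 that rose after AMI and 1 that was not called. *Bub1*, a checkpoint kinase at the kinetochore, had 13.3, 20.1, 16.0 and 13.1 in AMI *Bmi1*-CPC, against 4.59, 4.37, 3.05 and 4.45 in *Bmi1*-CPC, and rose by 1.69 ± 0.18 (adjusted p = 3.47e-05). *Bub3* had 24.9, 23.7, 25.8 and 25.8 after AMI, against 26.8, 26.3, 25.2 and 27.8 in *Bmi1*-CPC, a log2 fold change of -0.08 ± 0.10 (adjusted p = 0.559). BUB3 also takes part in transcription and RNA splicing, and the part of these roles in its level was not tested. *Bub1b*, *Mad2l1*, *Ttk* and *Kntc1* had log2 fold changes of 1.19, 0.82, 0.85 and 1.29 after AMI. At homeostasis 3 of 6 rose. *Ttk*, which encodes the MPS1 kinase that starts the checkpoint signal, had 4.59, 4.16, 4.26 and 3.48 in *Bmi1*-CPC, against 1.53, 0.780, 1.05 and 1.24 in *Sca-1*-YFP- cells, with no overlap (1.26 ± 0.22, adjusted p = 0.000627). The *Ttk* values rest on 14 to 19 reads per *Bmi1*-CPC library and 3 to 14 per *Sca-1*-YFP- library. *Bub1* and *Bub1b* were higher by 1.21 and 1.07, with *Bub1* at only 3 to 11 reads per *Sca-1*-YFP- library. *Bub3*, *Mad2l1* and *Kntc1* had differences of 0.21, 0.22 and 0.71 that were not called. *Kntc1* passed without *Bmi1*-CPC replicate 2 (0.91, adjusted p = 0.0388). *Mad2l1* shares 454 bases at 95.4% identity with *Gm42430*.

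The genes of ubiquitin-dependent control of the cycle act on the anaphase-promoting complex or around it, and 2 of 3 rose after AMI. *Ube2c*, the ubiquitin-conjugating enzyme of that complex, had 8.37, 13.8, 8.35 and 8.16 in AMI *Bmi1*-CPC, against 3.70, 2.45, 1.83 and 2.28 in *Bmi1*-CPC, and rose by 1.58 ± 0.22 (adjusted p = 0.000192). The *Sca-1*-YFP- cells had 1.42, 0.557, 1.97 and 1.52, within reach of *Bmi1*-CPC, and the homeostatic difference of 0.60 ± 0.27 was not called (adjusted p = 0.11). *Cdc20*, the activator of the complex, had 4.30, 9.03, 4.21 and 5.04 after AMI, against 0.740, 7.78, 2.80 and 3.96 in *Bmi1*-CPC. Its *Bmi1*-CPC replicate 2 lay above 3 of the 4 AMI pools, and *Cdc20* was not called (0.63 ± 0.41, adjusted p = 0.234). Without that pool it passed the threshold (1.00, adjusted p = 0.0485). *Cdca3*, whose product promotes entry into mitosis, rose by 1.12 ± 0.26 (adjusted p = 0.0042). At homeostasis 0 of 3 were called by limma, with 1 at an unadjusted p under 0.05 and 0 by edgeR and DESeq2. *Cdc20* passed there without *Bmi1*-CPC replicate 1 (1.01, adjusted p = 0.0223).

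The kinetochore and centromere genes rose in 3 of 3 cases in both comparisons. *Cenpe* encodes the kinesin-like motor that carries chromosomes to the middle of the spindle. It had 40.6, 55.4, 35.4 and 37.0 in AMI *Bmi1*-CPC, against 17.9, 10.1, 14.3 and 9.25 in *Bmi1*-CPC, a log2 fold change of 1.66 ± 0.20 (adjusted p = 7.6e-05). The lowest AMI pool, at 35.4, lay above the highest homeostatic pool, at 17.9. *Cenpf*, a large protein of the outer kinetochore, had 23.5, 31.5, 29.1 and 21.5 in *Bmi1*-CPC, against 12.5, 7.24, 7.55 and 3.73 in *Sca-1*-YFP- cells, a difference of 1.73 ± 0.27 (adjusted p = 0.000283). After AMI *Cenpf* had 49.1, 98.4, 49.0 and 53.1, with replicate 2 far above the others, and rose by 1.16 ± 0.21 (adjusted p = 0.000974). *Cenpa*, the centromeric histone H3 variant, rose by 0.92 ± 0.22 after AMI and by 0.78 ± 0.23 at homeostasis. The homeostatic call of *Cenpa* was lost without *Sca-1*-YFP- replicate 1 (0.66, adjusted p = 0.0623), and that of *Cenpe* (0.85) without replicate 1 or 3 of *Bmi1*-CPC or replicate 3 or 4 of the *Sca-1*-YFP- cells (0.69 to 0.80, adjusted p = 0.0623 to 0.0719).

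Of the mitotic kinesins, 8 of 8 rose after AMI, by 0.63 to 1.69. *Kif11*, the motor that pushes the spindle poles apart, had 33.7, 53.8, 33.5 and 35.4 in AMI *Bmi1*-CPC, against 13.5, 9.28, 12.8 and 9.73 in *Bmi1*-CPC, and rose by 1.69 ± 0.18 (adjusted p = 2.87e-05). The smallest rise was that of *Kif4*, a chromosome-bound kinesin, at 0.63 ± 0.18 (adjusted p = 0.0144), yet its homeostatic difference was 1.78 ± 0.34 (adjusted p = 0.00123), the largest of the 47 genes on the log2(value + 1) scale. As a ratio of means *Cdk1* was slightly ahead (3.86, beside 3.81 for *Kif4*), but single *Sca-1*-YFP- libraries held as few as 1 read of *Cdk1* and 3 of *Kif4*. *Kif4* averaged 18.9 after AMI, 11.8 in *Bmi1*-CPC, and for the *Sca-1*-YFP- cells 3.11. *Kif23*, which bundles the central spindle, had 9.32, 9.92, 10.6 and 9.01 in *Bmi1*-CPC, against 3.21, 4.79, 4.07 and 2.62 in *Sca-1*-YFP- cells, a difference of 1.217 ± 0.20 (adjusted p = 4e-04). *Kif11* and *Kif15* also rose at homeostasis, by 0.96 and 1.50. *Kif20a*, *Kif20b*, *Kif22* and *Kif2c* had homeostatic differences of 0.71, 0.35, 0.61 and 0.32 that were not called, although *Kif20a* was called when replicate numbers entered as a block (adjusted p = 0.0381), with DESeq2 (0.0477) and without *Bmi1*-CPC replicate 2 (0.0294). *Kif20a* and *Kif4* overlap *Cdc23* and *Pdzd11* on the other strand over 979 and 684 bases, and these partners had log2 fold changes of 0.16 and 0.06 after AMI, with neither called.

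Among the spindle assembly genes, 4 of 5 rose after AMI. *Nusap1*, a protein that binds spindle microtubules near chromosomes, had 16.2, 22.9, 15.2 and 16.4 in AMI *Bmi1*-CPC, against 4.29, 4.80, 6.70 and 6.61 in *Bmi1*-CPC, a log2 fold change of 1.50 ± 0.18 (adjusted p = 7.7e-05). At homeostasis *Nusap1* differed by 0.17 ± 0.24 and was not called (adjusted p = 0.631). *Aspm*, which organises spindle poles, had 10.2, 13.5, 14.3 and 12.1 in *Bmi1*-CPC, against 6.06, 5.91, 5.46 and 3.17 in *Sca-1*-YFP- cells, and was higher by 1.16 ± 0.21 (adjusted p = 0.000876). *Tpx2*, the activator of Aurora A, rose by 1.09 after AMI and by 1.11 at homeostasis. *Ckap2* rose by 1.73 after AMI, whereas its homeostatic difference of 0.65 was not called. *Ckap5*, a microtubule polymerase that also serves interphase cells, averaged 145 ± 6.26 after AMI and 125 ± 10.9 in *Bmi1*-CPC (0.21 ± 0.09, adjusted p = 0.0699), and 122 ± 5.79 in *Sca-1*-YFP- cells (SD, n = 4 each), and was called in neither comparison. Without *Bmi1*-CPC replicate 3 it passed after AMI (0.27, adjusted p = 0.0309).

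The cytokinesis genes rose in 4 of 4 cases in both comparisons. *Anln*, which encodes the ring protein anillin, had 44.2, 67.0, 39.4 and 32.1 in AMI *Bmi1*-CPC, against 15.2, 12.9, 11.1 and 11.2 in *Bmi1*-CPC, and rose by 1.74 ± 0.20 (adjusted p = 4.81e-05). *Ect2*, the exchange factor that activates RhoA at the cleavage site, had 4.59, 5.01, 6.70 and 4.69 in *Bmi1*-CPC, against 1.95, 3.01, 3.14 and 2.62 in *Sca-1*-YFP- cells, a difference of 0.76 ± 0.21 (adjusted p = 0.0134). The homeostatic call of each of the 4 genes was lost when any 1 of certain libraries was left out, with adjusted p then between 0.0502 and 0.0691. For *Ect2* these were *Bmi1*-CPC replicate 3 (0.66, adjusted p = 0.0503) and *Sca-1*-YFP- replicate 1 (0.66, adjusted p = 0.0507), and library totals gave 0.78 (adjusted p = 0.0668). *Prc1* (0.92) lost its call without replicate 2 or 3 of *Bmi1*-CPC or replicate 4 of the *Sca-1*-YFP- cells (adjusted p = 0.0597 to 0.0659), and *Anln* (0.55) without replicate 1 or 2 of *Bmi1*-CPC or replicate 2 or 4 of the *Sca-1*-YFP- cells (0.0563 to 0.0691). *Racgap1* (0.76) lost it without replicate 2, 3 or 4 of *Bmi1*-CPC or replicate 2 of the *Sca-1*-YFP- cells (0.0502 to 0.0643). *Prc1*, which cross-links the midzone, rose by 1.55 after AMI, *Ect2* by 1.32 and *Racgap1* by 1.09. *Prc1* overlaps *Rccd1* on the other strand over 670 bases, and *Rccd1* was low in both groups, at 2.91 after AMI and 3.00 in *Bmi1*-CPC.

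The condensin genes, whose products compact chromosomes, did not move together. Condensin I contains the SMC2 and SMC4 core with NCAPD2, NCAPG and NCAPH. *Ncapg* had 15.4, 22.1, 13.5 and 14.5 in AMI *Bmi1*-CPC, against 1.92, 4.37, 3.78 and 2.76 in *Bmi1*-CPC. Its rise of 2.06 ± 0.22 (adjusted p = 3.43e-05) was the largest log2 fold change of the 47 genes after AMI. *Smc2* and *Smc4* rose by 0.89 ± 0.15 and 0.93 ± 0.14. *Ncaph* had 9.72, 13.7, 7.70 and 8.30 after AMI, against 9.02, 8.85, 10.4 and 5.89 in *Bmi1*-CPC, with overlapping ranges (0.18 ± 0.21, adjusted p = 0.516). *Ncapd2* averaged 16.4 ± 3.21 after AMI and 17.96 ± 5.14 in *Bmi1*-CPC (SD, n = 4 each), and its log2 fold change was -0.11 ± 0.20 (adjusted p = 0.698). At homeostasis *Ncaph* rose: beside these *Bmi1*-CPC values, the *Sca-1*-YFP- cells had 3.42, 3.01, 2.90 and 4.28 (1.10 ± 0.21, adjusted p = 0.00139). *Ncapg* averaged 3.21 in *Bmi1*-CPC, against 1.66 for the *Sca-1*-YFP- cells, and was not called (0.63 ± 0.25, adjusted p = 0.0719) unless *Bmi1*-CPC replicate 1 was left out (0.80, adjusted p = 0.0267). *Smc2* passed at 0.53 ± 0.18 (adjusted p = 0.0354), but not without any one of *Bmi1*-CPC replicates 1 and 3 and *Sca-1*-YFP- replicates 1, 3 and 4 (adjusted p = 0.0505 to 0.107). *Smc4* and *Ncapd2* did not pass (0.36 and 0.53, adjusted p = 0.0967 and 0.0587), but both did in the blocked fit (adjusted p = 0.0176 and 0.0495). *Ncapd2* was also called with edgeR (TMM 0.0482, upper quartile 0.0497), with DESeq2 (0.0418) and without *Bmi1*-CPC replicate 1 (0.0156). *Ncapg* overlaps *Lcorl* on the other strand over 701 bases, and *Lcorl* itself averaged 38.8 after AMI and 28.7 in *Bmi1*-CPC, a rise of 0.44 ± 0.14 (adjusted p = 0.0239). Within this overlap the reads of the pair cannot be told apart by strand.

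**Figure D5:**
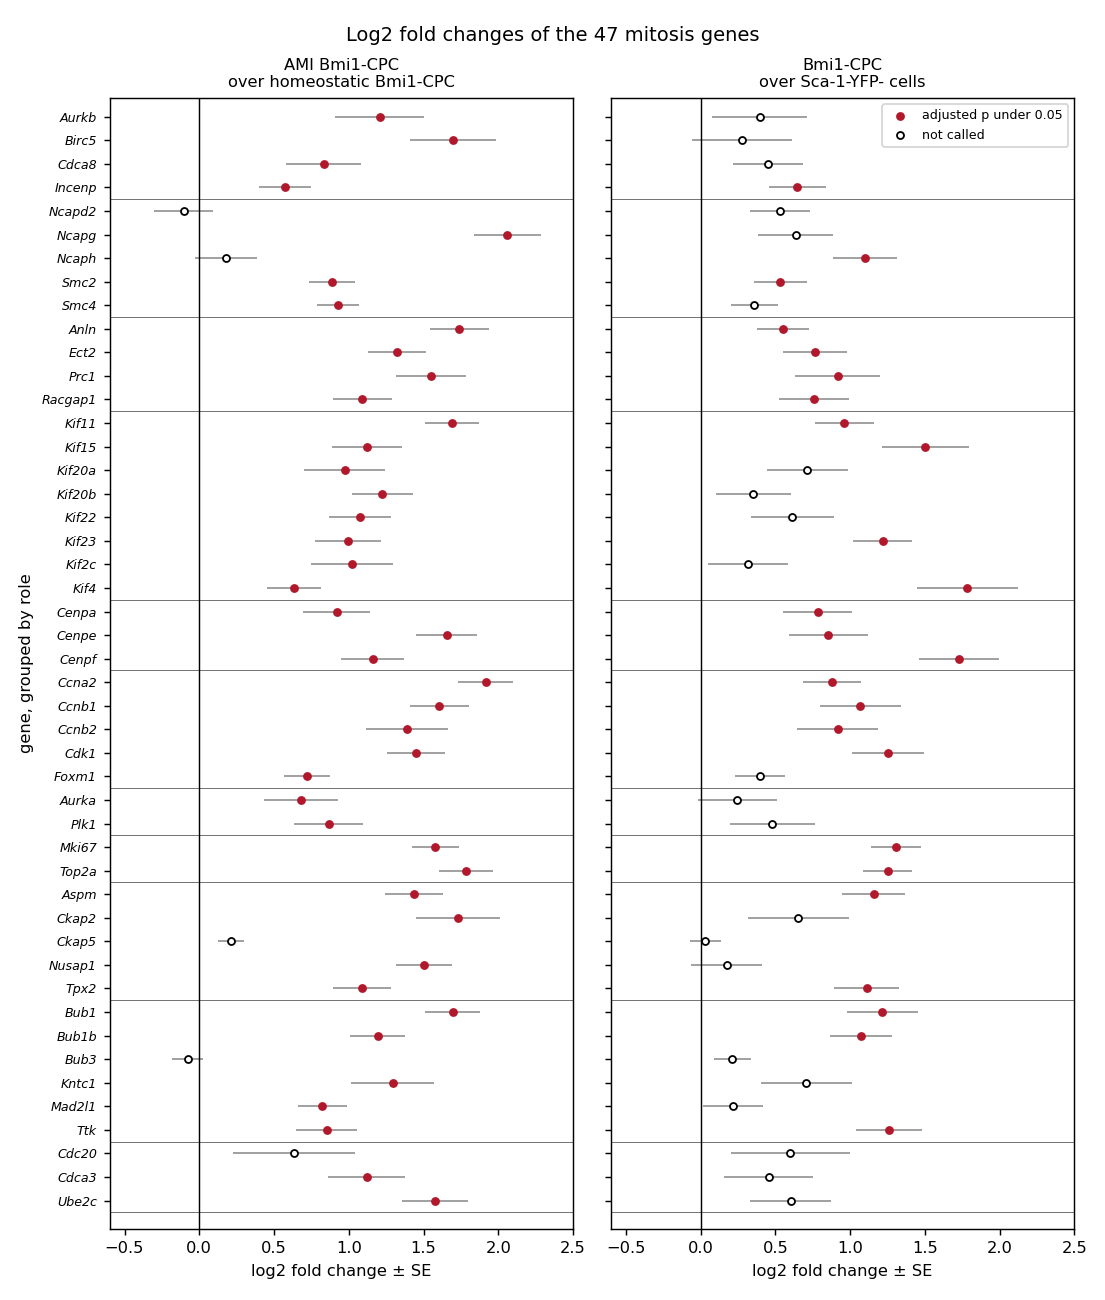
Log2 fold change with its standard error for each of the 47 genes, grouped by role, for AMI *Bmi1*-CPC over homeostatic *Bmi1*-CPC (left) and *Bmi1*-CPC over *Sca-1*-YFP- cells (right). Filled points passed an adjusted p of 0.05 (42 on the left, 25 on the right), and no point lies beyond -0.11 on the negative side.

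Mitosis genes outside the list of 47 moved the same way after AMI, though less uniformly. Of 84 such gene names listed, 62 were present among the deposited genes and tested. Of these 62, 34 rose (21.4% of all tested genes did), 3 fell (22.0% of all) and 25 were not called, with a median log2 fold change of 0.78. *Nuf2*, a subunit of the NDC80 complex that grips microtubules, had 13.5, 17.99, 10.8 and 10.9 in AMI *Bmi1*-CPC, against 2.51, 2.67, 2.07 and 2.04 in *Bmi1*-CPC, and rose by 2.08 ± 0.19 (adjusted p = 1.27e-05). *Cenpi*, a centromere protein, *Depdc1a*, and *Hmmr*, a spindle protein and hyaluronan receptor, rose by 1.71, 1.69 and 1.39. The 3 that fell were *Wee1*, the kinase that restrains CDK1 (11.0 after AMI and 20.4 in *Bmi1*-CPC, -0.845), *Mad1l1*, a checkpoint protein (6.14 after AMI and 11.1 in *Bmi1*-CPC, -0.76), and *Pttg1*, the anaphase inhibitor securin (9.61 after AMI and 14.1 in *Bmi1*-CPC, -0.50). At homeostasis 11 of 59 rose, a share close to the 16.8% of all tested genes, and 1 fell (*Kif3a*, a subunit of kinesin-2, 31.6 in *Bmi1*-CPC, against 42.6 for the *Sca-1*-YFP- cells, -0.42). The median was 0.42. *Stmn1*, which destabilises microtubules, *Arhgap11a*, a RhoA regulator, *Ndc80* and *Iqgap3* were the 4 with the smallest adjusted p, with log2 fold changes of 1.36, 1.16, 1.26 and 1.38.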

How the data were processed

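RNAseq was measured in 12 libraries of sorted heart cells, grouped by their labels. The deposited signal values are gene-level read counts that the authors normalized, and the submitters' processing notes name cutadapt, RSEM, edgeR and the mouse build NCBIM37, with versions not given in the sources used here. Each value equalled whole reads plus 0.5 times 1 factor per library, and 100% of values gave whole reads within 1e-06 of a read. The authors' fold changes, log2 fold changes and adjusted p-values were not used.

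Values were tested as log2(value + 1) with limma 3.58.1 (trend, two-sided, R 4.3.3) on the 8 libraries of each comparison, for genes above 1 in at least 4 libraries, with Benjamini-Hochberg adjustment over all genes tested and a threshold of 0.05. Folds on this scale understate changes of low genes. The recovered reads were also tested with edgeR 4.0.16, which called 2759 genes higher and 2705 lower after AMI and 2056 higher and 2216 lower at homeostasis, and with DESeq2 1.42.0. Other alternatives were the pseudocount, the filter, the scaling, a replicate block and each library left out. The code was tested on simulated data. No 2 libraries of a group were alike within sampling noise (chi-square over its degrees of freedom, 7.09 to 60.7). The homeostatic replicate numbers paired the libraries by correlation of deviations (0.26, 0.25, 0.16 and 0.30 for equal numbers, at most 0.08 for others). The study calls the samples of both comparisons matched but does not say how.

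Members and lists were chosen with earlier results of these data known. In each role the gene with the smallest adjusted p is given in full for each comparison, and of the other mitosis genes the 4 with the smallest adjusted p. With blastn 2.17.0, 10 of the 47 genes had a same-strand stretch of at least 95% identity over at least 75 bases in another gene and 13 an opposite-strand one. The libraries, made from amplified double-stranded cDNA, keep no strand. Promoter coordinates are of GRCm38.p6, not the build of the counts.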

Additional observations from a re-analysis of the deposited data

Results flagged for a closer look

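Of the 144 combinations of a group and a gene, or the score, 16 had 1 library of 4 that lay far from the others by Dixon's criterion at the 95% level. Chance flags about 1 in 20 groups. AMI *Bmi1*-CPC replicate 2 was the library in 14 of the 16, each time as the highest. There the score over the 47 genes was 4.7, beside 4.06 to 4.15 in the other AMI libraries. The normalized value was 66.57 for *Ccna2* (35.1 to 38.1 in the others), 53.83 for *Kif11* (33.5 to 35.4), 14.49 for *Kif20a* (8.06 to 8.87) and 25.27 for *Kif4* (16.5 to 17.1). *Plk1* stood at 6.23 (3.76 to 4.08), *Cdca3* at 8.75 (3.39 to 4.08), *Ube2c* at 13.79 (8.16 to 8.37) and *Cenpf* at 98.35 (49.0 to 53.1). The spindle genes *Nusap1* and *Tpx2* stood at 22.89 (15.2 to 16.4) and 45.85 (25.0 to 25.8). For cytokinesis, *Prc1* was at 56.49 (25.2 to 26.2) and *Ect2* at 20.65 (12.1 to 13.4), and the condensin gene *Smc2* was at 69.79 (51.9 to 53.9). The remaining flags were low values: *Bub1* at 3.046 in *Bmi1*-CPC replicate 3 (4.37 to 4.59 in the others) and *Incenp* at 4.829 in *Sca-1*-YFP- replicate 4 (4.99 to 5.01).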

How the results depend on the processing

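After AMI the count of genes that rose was 35 to 43 under every alternative tried, the lowest with a filter at a value above 5, which left 39 of the 47 genes. Of all tested genes, 17.6% to 23.9% rose under these alternatives. Leaving out 1 library gave 39 to 43 genes and a median log2 fold change of 0.93 to 1.21. The median was 1.3784 with edgeR and TMM, 1.4677 with edgeR and library totals, 1.3791 with DESeq2 and 1.342 with edgeR and upper quartile scaling, a setting chosen after seeing the data. At homeostasis the count was 15 with library totals (10.7% of all tested genes rose) and 18 to 28 under the other alternatives (14.1% to 18.2% of all). The median was 0.5869 with a pseudocount of 2, 0.6331 with library totals, 0.8667 with the filter at 5, 0.8997 with TMM, 0.9373 with DESeq2 and 0.8963 with upper quartile scaling, and leaving out 1 library gave 19 to 25 genes and medians of 0.65 to 0.78. The count of genes that fell was 0 in both comparisons under every alternative. With the replicate block, 28 genes rose at homeostasis, the 25 and 3 more, where 18.2% of all tested genes rose. After AMI equal numbers did not clearly deviate together (correlations of -0.01 to 0.08), which cannot show whether they share more than a number. There the block gave 41 genes, all but *Aurka* of the 42, where 20.7% of all tested genes rose. No other call of the 47 genes changed with the block. Of the called genes, 39 of 42 after AMI and 15 of 25 at homeostasis kept their call under every alternative that tested them. Among genes with at least 10 reads in every library, a limit chosen after seeing the data, 31 of 35 rose after AMI and 14 of 22 at homeostasis. The share of all genes that rose under this limit was not computed. Among the genes given in full, *Incenp* and *Ect2* lost their homeostatic calls, as reported above. The cause of these shifts was not tested.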

Other observations

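Of 20 genes of the DREAM and MYB-MuvB complexes, the E2F family and related transcription factors, 3 rose after AMI: *Tfdp1*, the E2F partner (0.84), *E2f3* (0.53) and *Rb1*, the retinoblastoma protein (0.48). Over all tested genes 21.4% rose and 22.0% fell after AMI, and 16.8% rose and 17.6% fell at homeostasis, so the shares among the regulators were not above those of all genes after AMI. *Lin37*, a MuvB subunit, and the repressive *E2f4* fell by 0.77 and 0.52. The median log2 fold change was 0.11. At homeostasis 5 of 20 rose in *Bmi1*-CPC, namely *E2f7* (1.55), *E2f2* (1.27), *Rbl1* (1.12), *E2f8* (1.06) and *Rb1* (0.44), while *Rbl2* and *Tfdp1* fell by 0.51 and 0.48, with a median of 0.20.

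Genes of cohesin and the anaphase-promoting complex core, some of whose products also act in resting cells, were mostly not called. After AMI 4 of 22 rose (*Cdc27* 0.70, *Cdc16* 0.61, *Anapc10* 0.43, *Wapal* 0.25) and *Anapc2* fell by 0.65, with a median of 0.11, a share of rises close to the 21.4% of all genes. At homeostasis *Rad21* alone was called (0.57). By limma 0 of the 22 fell there, with 1 lower at an unadjusted p under 0.05, and the median was 0.05.

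Genes of replication licensing and the replication fork, from helicase loading to the sliding clamp *Pcna*, rose in 2 of 15 cases after AMI (*Pcna* 0.69, *Mcm4* 0.40; median 0.12), beside 21.4% of all genes, and in 6 of 15 at homeostasis, beside 16.8% of all genes (*Mcm5* 0.98, *Cdt1* 0.89, *Mcm2* 0.82, *Mcm3* 0.73, *Mcm6* 0.72, *Gins4* 0.45; median 0.38). By limma 0 fell in either comparison, and 0 were lower at an unadjusted p under 0.05. In AMI replicate 2, whose mitosis genes stood above those of the other AMI libraries, the other mitosis genes had a median ratio of 1.43 to the mean of the other AMI libraries (53 of 62 above 1), beside 1.12 for the regulators, 0.992 for cohesin and the anaphase-promoting complex, and 1.06 for licensing.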
